A study of Rattus norvegicus with 24 samples.

Results

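The tumor necrosis factor (TNF) ligand and receptor superfamily was followed in the peripheral blood of rats that had received bacterial lipopolysaccharide (LPS) and eaten oat beta-glucans. Members were the array's non-control probes whose gene name begins with Tnfsf or Tnfrsf and a digit, or is Tnf, Lta, Ltb, Fas, Cd27 or Cd70. This gave 35 genes, 15 ligands and 20 receptors, on 40 probes, out of 25885 gene names on the array. Each gene was represented by its brightest probe in the sample channel.

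Ligands of this family are mostly membrane proteins that act as trimers, some of them after being cut from the cell surface. Some of their receptors carry a death domain, which can lead to apoptosis. Many recruit adaptor proteins of the TRAF group and activate the transcription factor NF-kappaB. In blood the family connects monocytes, T cells and B cells, and Tnf itself is a classical early product of monocytes and macrophages that meet LPS.

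Blood RNA of single male Sprague Dawley rats was hybridised on 24 two-colour Agilent arrays against a common reference, a pool of blood RNA from rats of all groups. The rats were 8 weeks old when the experiment began and ate their diet for 6 weeks. C-G0 rats ate a semi-synthetic diet and were injected repeatedly with saline through the tail vein, with a week between injections, and LPS-G0 rats ate that diet and received LPS at 10 mg/kg on the same schedule. Rats of C-G1 and LPS-G1 were injected in the same ways, with an oat beta-glucan of high molecular weight added to their feed. Rats of C-G2 and LPS-G2 were given the preparation of low molecular weight instead. Each of the 6 groups had 4 arrays, spread over 3 slides that each held all 6 groups. The 2 LPS-G0 arrays with replicate numbers 3 and 4 carry a title naming the LPS injection and another label naming the control treatment, and they were used as LPS-G0. Blood was drawn at the end of the feeding period, and how long after the last injection is not given in the sources used here.

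The value of a probe is its log2 ratio of Cy3, which holds the rat's own RNA according to the sample labels, over Cy5, which holds the reference. The study's methods name the dyes the other way round. With those dyes the sign of every log2 ratio and log2 difference below would turn, while the correlations would keep theirs. The detection counts and the choice of tested probes also rest on Cy3, and with those dyes they would describe the reference. The Cy3 signals varied more between rats of a group than the Cy5 signals did, with a median SD of 0.35 against 0.19 on the log2 scale over 7074 probes, and the larger SD was in Cy3 for 97.4% of them. The array files flagged between 7786 and 15385 probes per array as well above background in Cy3, out of 30367. Since whole blood was measured, fewer cells of a type and less RNA per cell cannot be told apart in any value below.

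Detection separated the family into 3 blocks. A gene counted as measurable when 1 or more of the groups had its probe flagged as well above background in Cy3 on each of the group's 4 arrays, and 12 of the 35 genes met this, 5 ligands and 7 receptors. Of these 12, 10 were well above background on all 24 arrays, and Lta and Tnf were on 23. Another 4 genes were detected on 10 to 16 arrays, 6 on 1 to 6 arrays, and 13 on none.

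**Figure D1:**
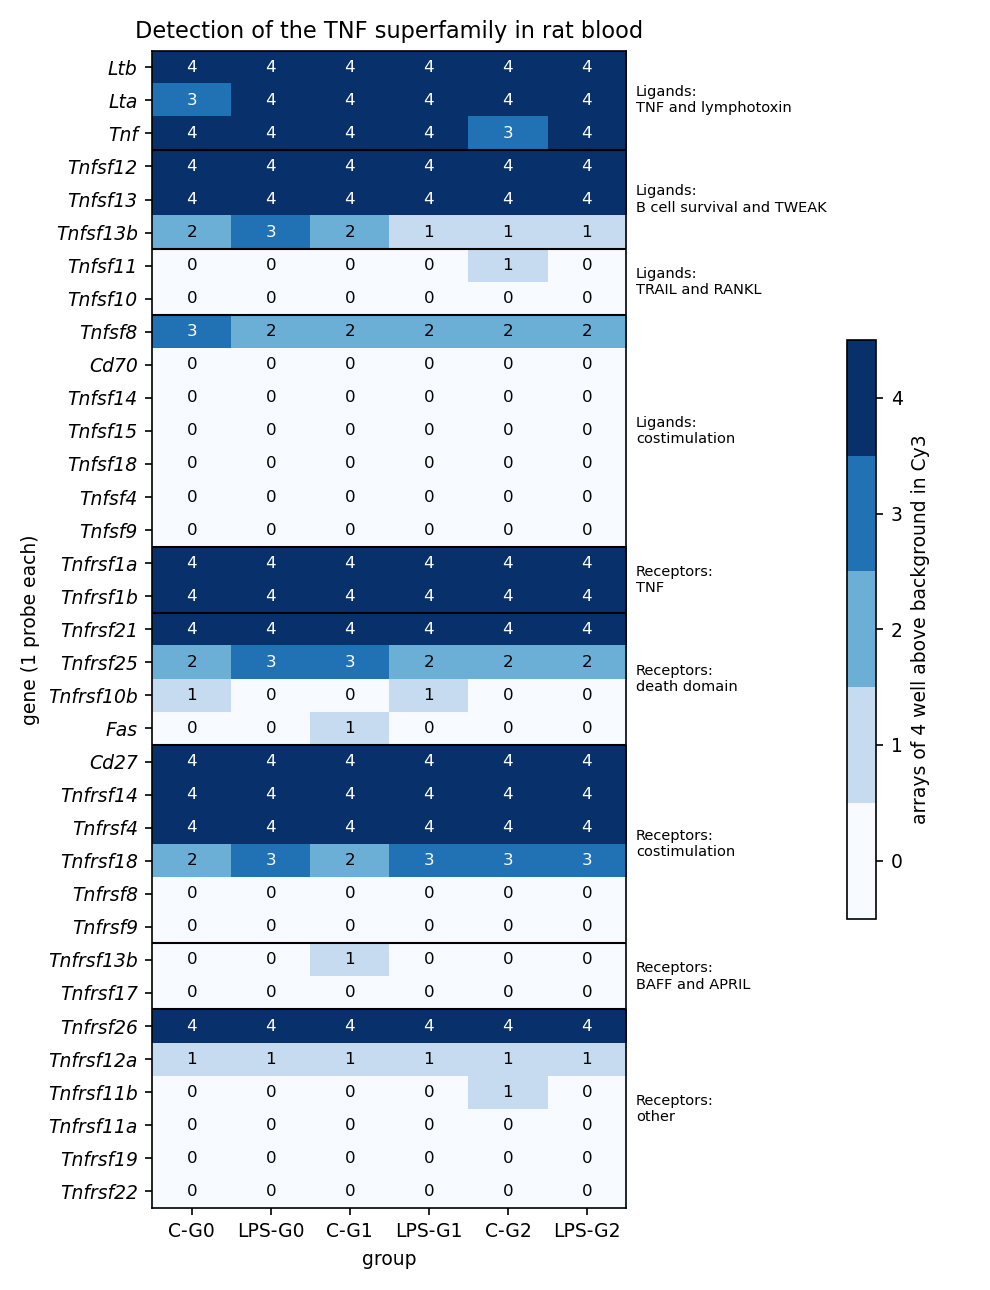
Number of arrays, of 4 per group, on which each of the 35 genes was well above background in Cy3, with genes in rows ordered by role and the 6 groups in columns. The 12 tested genes are dark in every group, while 13 genes are at 0 in every group.

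Among the ligands, all 3 members of the TNF and lymphotoxin group were measurable. Tnf encodes the founding cytokine, Lta encodes lymphotoxin alpha, which is secreted by lymphocytes and binds the TNF receptors, and Ltb encodes the membrane anchor that carries Lta to the lymphotoxin beta receptor. Tnfsf12, which encodes TWEAK, and Tnfsf13, which encodes the B cell factor APRIL, were measurable as well. Tnfsf13b, the B cell survival factor BAFF, was detected on 10 arrays. Tnfsf10, which encodes the apoptosis ligand TRAIL, was detected on 0 arrays, and Tnfsf11, which encodes RANKL, on 1. Of the 7 costimulatory ligands only Tnfsf8 was detected at all, on 13 arrays.

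Among the receptors, both TNF receptors, Tnfrsf1a and Tnfrsf1b, were detected on all 24 arrays. So were 3 of 6 costimulatory receptors, namely Cd27, Tnfrsf4, which activated T cells carry, and Tnfrsf14, the herpesvirus entry mediator. Tnfrsf18 was detected on 16 arrays, and Tnfrsf8 and Tnfrsf9 on 0. Of the death domain receptors other than Tnfrsf1a, Tnfrsf21 was on 24 arrays, Tnfrsf25 on 14, Tnfrsf10b on 2 and Fas on 1. Tnfrsf26, a receptor of a gene cluster particular to rodents, was on 24 arrays, and Tnfrsf12a, the TWEAK receptor, was on 6.

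Several ligands and their receptors therefore differed in detection. The APRIL gene was on 24 arrays, while its receptor genes Tnfrsf13b and Tnfrsf17 were on 1 and 0. Cd27 was on 24 arrays and its ligand Cd70 on 0. A probe below background has only a bound, and 10 of the 23 genes that were not measurable in Cy3 were well above background in the brighter reference channel on 12 or more arrays, including Fas on 20, Tnfrsf13b on 22 and Tnfsf13b on 23. For the 14 cases where a dim gene was detected on some arrays of only 1 compared group, the lower limit of the difference stayed under 1-fold, so no difference is given. No member probe was saturated.

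The genes of the TNF and lymphotoxin group lie side by side in the genome. By the array's own mapping on the rat build rn4, the Lta probe is at chr20:3659744-3659803, the Tnf probe at chr20:3663558-3663617 and the Ltb probe at chr20:3666709-3666768. Tnfsf12 and Tnfsf13 are also neighbours, at chr10:56503800-56503859 and chr10:56500597-56500656. Exon annotation of that build was not used here. RefSeq gave the same gene symbol for all 27 of the 35 members whose accession it held.

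The sequences below are shown because Lta was the only member called in any comparison, Tnf is its neighbour, and Tnfrsf4 came next to Lta in the same comparison. They are the 250 bases before the RefSeq start of each gene on build GRCr8, read 5′ to 3′ on the gene's strand, which is the plus strand for all 3. They lie at chr20:3623277-3623526 for Lta, chr20:3626435-3626684 for Tnf and chr5:171888884-171889133 for Tnfrsf4. Capitals mark matches to the 10-base NF-kappaB consensus and to TATAAA, both searched on both strands.
Lta: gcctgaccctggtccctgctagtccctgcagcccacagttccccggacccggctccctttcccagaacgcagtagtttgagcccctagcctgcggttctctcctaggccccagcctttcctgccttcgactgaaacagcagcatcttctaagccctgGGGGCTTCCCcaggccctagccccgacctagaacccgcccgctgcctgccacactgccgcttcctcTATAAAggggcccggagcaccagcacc
Tnf: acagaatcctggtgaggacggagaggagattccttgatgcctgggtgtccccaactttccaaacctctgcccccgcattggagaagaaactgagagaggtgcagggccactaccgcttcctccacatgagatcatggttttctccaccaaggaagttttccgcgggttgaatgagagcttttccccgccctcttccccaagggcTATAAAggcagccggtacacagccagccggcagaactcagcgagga
Tnfrsf4: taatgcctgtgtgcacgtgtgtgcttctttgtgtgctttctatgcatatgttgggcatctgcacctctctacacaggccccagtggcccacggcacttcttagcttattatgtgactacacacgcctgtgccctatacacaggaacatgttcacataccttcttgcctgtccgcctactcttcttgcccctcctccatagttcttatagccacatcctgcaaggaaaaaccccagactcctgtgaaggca
The Lta window held an NF-kappaB match beginning 93 bases before the start, and a TATAAA beginning 27 bases before it. The Tnf window held a TATAAA beginning 46 bases before the start, and the Tnfrsf4 window held neither motif. The NF-kappaB consensus was present in 3.54% of all 33469 windows of that length and TATAAA in 12.9%, and in 4 and 7 of the 27 members with a window. The motifs do not overlap in these windows, and a match describes letters only.

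What the arrays read is a 60-base probe per gene. The probes of Ltb and Tnfsf13, at the rn4 positions given above and on the minus strand, are shown as examples for ligands set beside lymphocyte and monocyte markers below.
Ltb: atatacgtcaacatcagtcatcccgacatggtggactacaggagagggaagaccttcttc
Tnfsf13: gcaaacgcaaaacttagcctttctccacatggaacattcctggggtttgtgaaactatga

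The first comparison asked what LPS did to rats on the control diet (LPS-G0 vs. C-G0). No member passed the adjusted p of 0.05 in limma, against 0.0097% of the 10313 probes tested, which is 1 probe. No member passed the analysis of variance and Tukey's test of the study's methods. Calls over all probes were not counted for it, so this cannot be set beside a share of all probes. At an unadjusted p under 0.05 there were 2 of 12 members, Lta and Tnfrsf4, both higher, beside 15.2% of all probes. No member had arrays that did not overlap between the groups, against 5.03% of all probes. A log2 difference above 0 was found for 3 of 12 members and for 53.5% of all probes, and the median was -0.08 for the members and 0.03 for all probes.

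Lta gave log2 ratios of 0.59, -0.20, -0.44 and -0.03 in the C-G0 arrays and 0.60, 0.47, 0.20 and 0.63 in the LPS-G0 arrays. All 4 LPS-G0 arrays were above 3 of the C-G0 arrays, and C-G0 replicate 1 lay among them. The log2 difference was 0.49 with a standard error (SE) of 0.20 (limma adjusted p = 0.263). Without C-G0 replicate 1 it was 0.70 with an adjusted p of 0.0184. In that fit 1136 of all 10338 probes tested were called, against 1 of 10313 with every array kept. C-G0 replicate 3 was the only array on which Lta was not well above background.

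Tnfrsf4 had log2 ratios of 0.21, -0.30, 0.14 and -0.18 in C-G0 and of 0.36, 0.11, 0.25 and 0.50 in LPS-G0. The groups overlapped, and the log2 difference was 0.34 with an SE of 0.14 (limma adjusted p = 0.282). Tnfrsf26 followed by p, with -0.69, -0.05, 0.32 and 0.42 in C-G0 against -0.29, -0.69, 0.03 and -0.65 in LPS-G0. Its log2 difference was -0.40 with an SE of 0.23 (adjusted p = 0.432), and the spread in C-G0 covered the LPS-G0 arrays almost fully.

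For Tnf, the cytokine most closely tied to LPS, the C-G0 arrays gave log2 ratios of -0.58, -0.30, -0.09 and -0.21, and the LPS-G0 arrays gave -0.73, 0.13, -0.45 and -0.98. The LPS-G0 arrays lay on both sides of the controls. The log2 difference was -0.21 with a 95% interval from -0.80 to 0.37 (limma adjusted p = 0.757), and the interval holds changes in either direction. The cell type markers moved beside these values as follows. The mean log2 ratio of 5 neutrophil markers was lower in LPS-G0 by 0.53, at -0.65 to -0.21 against -0.14 to 0.24 in C-G0 (exact permutation p = 0.0286, the smallest that 4 against 4 arrays allow, and 0.172 after adjustment over 24 marker tests). The mean of 5 NK cell markers was higher by 0.93, from -0.10 to 0.59 against -1.68 to -0.02 (exact permutation p = 0.0571, adjusted 0.196). Their part in the members' values was not tested.

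The second comparison asked how the high-molecular-weight beta-glucan altered the LPS-treated rats (LPS-G1 vs. LPS-G0), and it gave the only call among the members. Lta fell in LPS-G1, with log2 ratios of 0.07, -0.29, -0.44 and -0.50 against 0.60, 0.47, 0.20 and 0.63 in LPS-G0. Every LPS-G1 array was below every LPS-G0 array. The log2 difference was -0.76 with an SE of 0.20 and a 95% interval from -1.18 to -0.34, or 1.70-fold lower (limma adjusted p = 0.0299, exact permutation p = 0.0286). This was 1 of 12 members, or 8.33%, beside 8.93% of all 10313 probes called, 8.39% lower and 0.543% higher, so the share of members called was near that of all probes.

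The Lta call depended on how the arrays were fitted. On the 3 slides the difference was -0.47, -0.57 and -1.12. With slide as a block the log2 difference was -0.67 and the adjusted p 0.0529, and it was -0.83 when the 2 LPS-G0 arrays whose labels conflict were dropped, with an adjusted p of 0.13. Leaving out single arrays gave differences from -0.88 to -0.70 with adjusted p from 0.0156 to 0.11. The call was lost without LPS-G0 replicate 1, 2 or 4 or LPS-G1 replicate 2, 3 or 4. Over all probes, 0, 11, 0, 4, 2 and 0 were called in these fits, in that order, against 921 with every array kept. Without LPS-G0 replicate 3 or LPS-G1 replicate 1, where Lta kept its call, 1092 and 1261 probes were called.

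**Figure D2:**
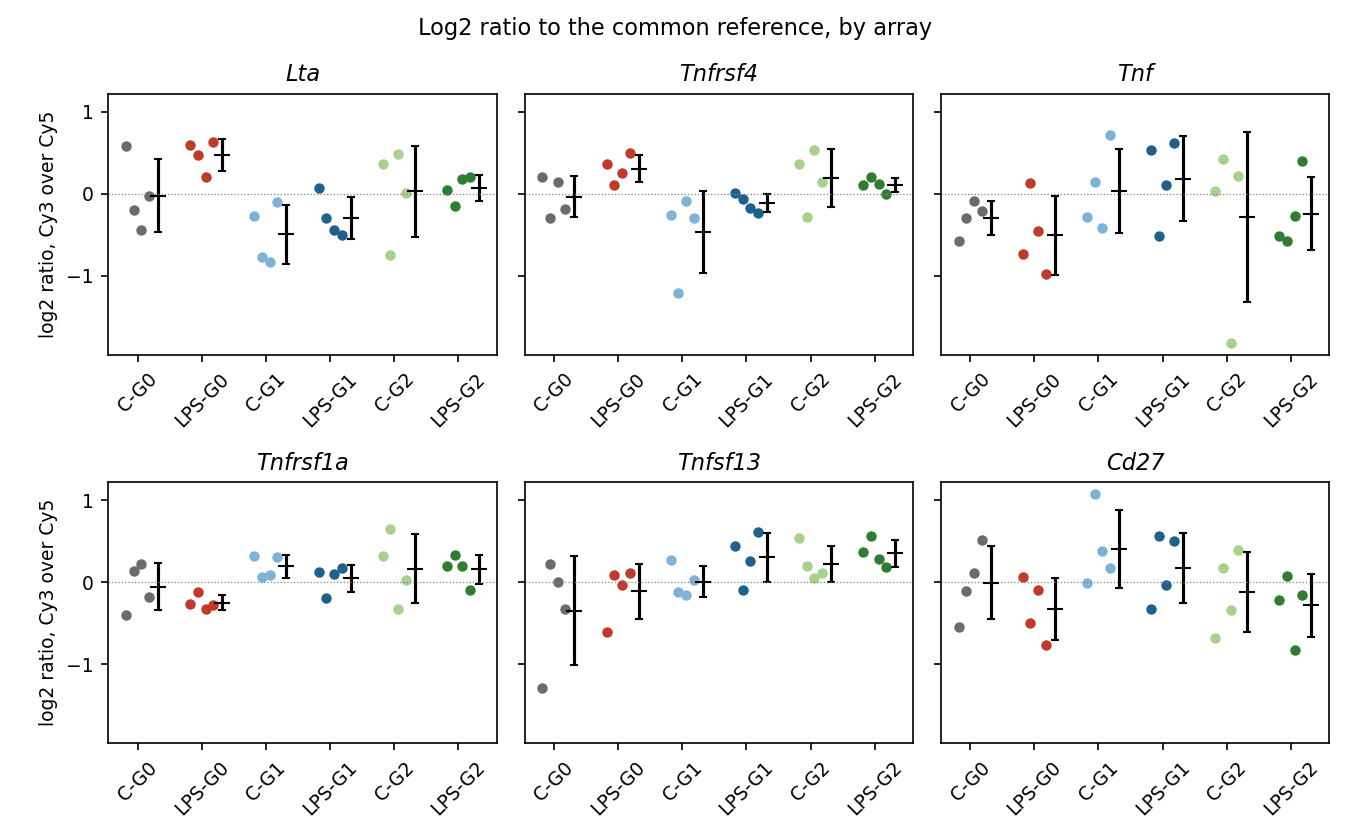
Log2 ratio of the rat's own RNA (Cy3) to the common reference (Cy5) for 6 members, with 1 point per array in each of the 6 groups and the mean ± SD (n = 4) as a black bar beside the points. All 4 LPS-G1 points of Lta and of Tnfrsf4 lie below the 4 LPS-G0 points, while the groups of Tnf and Cd27 overlap.

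Tnfrsf4 came next in that comparison. Its LPS-G1 arrays gave 0.01, -0.06, -0.17 and -0.23, against 0.36, 0.11, 0.25 and 0.50 in LPS-G0, and the groups did not overlap. The log2 difference was -0.42 with an SE of 0.14 (limma adjusted p = 0.0760, exact permutation p = 0.0286). At an unadjusted p under 0.05 there were 3 of 12 members beside 26.9% of all probes, namely Lta, Tnfrsf4 and Tnf. The arrays of 2 of 12 members did not overlap, which is 16.7% beside 21.9% of all probes.

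Tnf gave log2 ratios of 0.53, -0.51, 0.11 and 0.62 in LPS-G1 against -0.73, 0.13, -0.45 and -0.98 in LPS-G0. It was higher in 3 of 4 LPS-G1 arrays than in 3 of 4 LPS-G0 arrays. Replicates 2 and 3 of LPS-G1 and replicates 2 and 3 of LPS-G0 lay in the range of the other group. The log2 difference was 0.69 with an SE of 0.28 and a 95% interval from 0.11 to 1.28 (limma adjusted p = 0.123). Its neighbour Lta thus stood at -0.76 and Tnf at 0.69 in the same arrays, and the difference between these values was not tested. Both signals were low, with a mean Cy3 signal of 288 for Lta and 144 for Tnf, beside 12000 for Tnfrsf4. Over the processing settings described at the end, Lta ranged from -0.85 to -0.50 and Tnf from 0.40 to 0.76.

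Of the other members, none had an unadjusted p under 0.05. Ltb gave 0.36, 0.37, -0.06 and 0.00 in LPS-G1 against -0.06, 0.17, -0.33 and -0.48 in LPS-G0, with a log2 difference of 0.34 (limma adjusted p = 0.303). Cd27 gave -0.33, 0.56, -0.03 and 0.51 against 0.06, -0.50, -0.09 and -0.76, with a log2 difference of 0.50 (adjusted p = 0.235). Both groups overlapped in each of these genes, and the log2 difference was above 0 in 10 of 12 members beside 55.4% of all probes, with a median of 0.30 beside 0.06.

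Marker lists moved in the same arrays. The mean of 7 erythroid markers was lower in LPS-G1 by 0.46, from -0.78 to -0.01 against 0.08 to 0.35 in LPS-G0 (exact permutation p = 0.0286, adjusted 0.172). Of these 7 genes, 2 were called lower, beside 8.39% of all probes, and 1 had a log2 difference above 0. The mean of 5 monocyte markers was higher by 0.28, from -0.05 to 0.21 against -0.39 to -0.12 (exact permutation p = 0.0286, adjusted 0.172), with 0 genes called beside 8.93% of all probes. The T cell list, of interest because T cells make lymphotoxin, differed by 0.15 with an exact permutation p of 0.457, and it overlapped between the groups. Of the marker genes on the array, only the NK marker Klrb1 and the plasma cell marker Sdc1 were at 0 arrays. The part of these cells in the Lta value was not tested.

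The third comparison set the low-molecular-weight beta-glucan against the same LPS-G0 arrays (LPS-G2 vs. LPS-G0). No member was called, and neither was any of the 10313 probes (0%). The analysis of variance called 0 members. Its calls over all probes were not counted, so that 0 cannot be set beside a share of all probes. At an unadjusted p under 0.05 there was 1 of 12 members, Tnfrsf1a, beside 8.23% of all probes. A log2 difference above 0 was found in 10 of 12 members beside 47.4% of all probes, with a median of 0.16 beside -0.02. The arrays did not overlap for 3 of 12 members, 25.0% beside 10.5% of all probes, and these were both TNF receptors and Tnfsf13, all higher in LPS-G2.

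Tnfrsf1a, the widely expressed TNF receptor with a death domain, gave 0.20, 0.33, 0.20 and -0.09 in LPS-G2 against -0.27, -0.12, -0.32 and -0.28 in LPS-G0. The groups were separated by a narrow gap, and the log2 difference was 0.41 with an SE of 0.15 and a 95% interval from 0.08 to 0.74 (limma adjusted p = 0.597, exact permutation p = 0.0286). It was 0.40, 0.65 and 0.34 on the 3 slides. Tnfrsf1b, the TNF receptor found mainly on leukocytes, gave 0.07, -0.09, 0.10 and -0.02 against -0.46, -0.22, -0.12 and -0.41, a log2 difference of 0.32 (adjusted p = 0.620, exact permutation p = 0.0286). A further Tnfrsf1b probe gave a log2 difference of 0.38 (adjusted p = 0.597).

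Tnfsf13 gave 0.37, 0.57, 0.28 and 0.19 in LPS-G2 against -0.61, 0.09, -0.03 and 0.11 in LPS-G0. All LPS-G2 arrays were above the LPS-G0 arrays, of which replicate 1 was far below the rest, and the log2 difference was 0.46 with an SE of 0.27 (limma adjusted p = 0.609). Lta was at 0.05, -0.15, 0.18 and 0.21 in LPS-G2, with LPS-G0 replicate 3 inside that range and a log2 difference of -0.40 (adjusted p = 0.597). In the same arrays the neutrophil marker mean was higher in LPS-G2 by 0.64 (exact permutation p = 0.0286, adjusted 0.172), and the monocyte mean was higher by 0.32 (exact permutation p = 0.114). Their part in the receptor values was not tested.

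**Figure D3:**
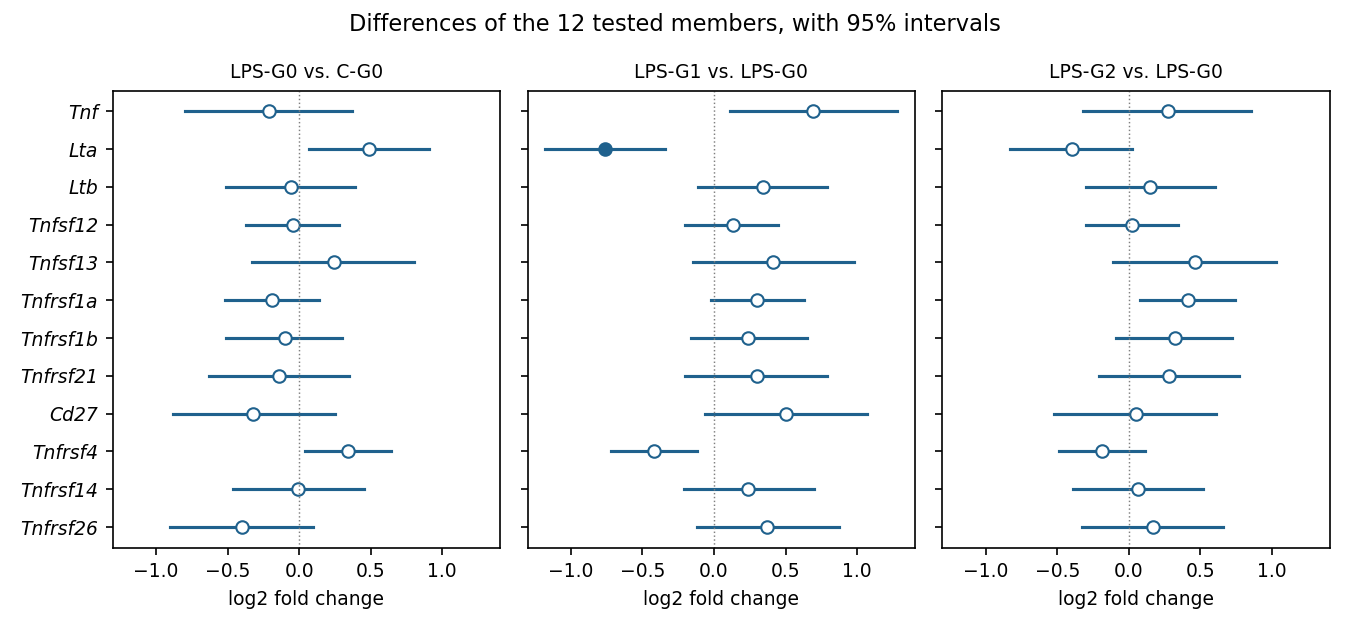
Log2 difference of the 12 tested members in the 3 comparisons, with 95% intervals from limma as horizontal lines and filled points where the adjusted p was under 0.05. Only Lta in LPS-G1 vs. LPS-G0, at -0.76, is filled.

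All 3 comparisons above share the LPS-G0 arrays, so their values are not independent. Over the 6 groups, LPS-G0 had the lowest mean for 9 of the 12 members and the highest for Lta and Tnfrsf4. Of all 10708 probes tested over 24 arrays, 24.1% had their lowest mean in LPS-G0 and 27% their highest. C-G1 had the highest mean for 6 members and the lowest for 2, beside 28.9% and 29.7% of all probes. The range of the 6 group means was widest for Lta, at 0.96 from C-G1 to LPS-G0, followed by Tnfrsf4 with 0.77, and it was narrowest for Tnfsf12, at 0.13 on the log2 scale.

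Lta and Tnfrsf4 did not pass the test in the saline-injected rats on the high-molecular-weight diet. In C-G1, Lta gave -0.27, -0.77, -0.83 and -0.10, and Tnfrsf4 gave -0.26, -1.21, -0.09 and -0.30, with C-G1 replicate 2 far below the other arrays. In C-G1 vs. C-G0 no member was called, beside 0.028% of all probes, and at an unadjusted p under 0.05 there was 1 of 12, Tnfrsf4, beside 27.9%. The log2 differences were -0.47 for Lta (limma adjusted p = 0.203) and -0.43 for Tnfrsf4 (adjusted p = 0.169). Without C-G1 replicate 2 the Tnfrsf4 difference was -0.19. The mean of the erythroid markers ranged from -1.43 to -0.12 in C-G1 and from -0.06 to 0.39 in C-G0, and its part was not tested.

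In C-G2 vs. C-G0 no member was called either, again beside 0.028%, and 1 of 12 had an unadjusted p under 0.05, beside 13.3%. This was Tnfsf13, with 0.54, 0.20, 0.05 and 0.11 in C-G2 against -1.29, 0.22, 0.01 and -0.32 in C-G0. The first C-G0 array lay far below all others, and the log2 difference of 0.57 (limma adjusted p = 0.321) became 0.26 without it.

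LPS left no called member on either beta-glucan diet. In LPS-G1 vs. C-G1, where 0.00934% of probes were called, the member differences ran from -0.30 for Tnfrsf26 to 0.35 for Tnfrsf4. In LPS-G2 vs. C-G2, where 0% were called, they ran from -0.16 for Cd27 to 0.13 for Tnfsf13. With the LPS effect taken over 3 diets, 0 members and 0.0187% of probes were called, and the lowest p belonged to Tnfrsf4 at 0.20 (limma adjusted p = 0.573), Lta at 0.24 (adjusted p = 0.577) and Tnfsf13 at 0.22 (adjusted p = 0.617). No member passed an unadjusted p under 0.05 in these 3 comparisons, beside 2.81%, 1.09% and 9.61% of all probes.

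The LPS effect did not differ detectably between diets. For the LPS effect on G1 minus that on G0, Lta stood at -0.29 with a 95% interval from -1.01 to 0.42 (limma adjusted p = 0.999), and 0 members and 0% of probes were called. For the effect on G2 minus that on G0, Lta stood at -0.46 with an interval from -1.17 to 0.26 and Tnfrsf4 at -0.42 with an interval from -1.01 to 0.18, with adjusted p of 0.836 and 0.832, and again 0 members and 0% of probes were called. At an unadjusted p under 0.05 there were 0 members in either test, beside 3.01% and 5.57% of probes.

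The preparations of different molecular weight were set against each other in LPS-G1 vs. LPS-G2, where 0 members and 0% of probes were called, and 0 members and 4.21% of probes had an unadjusted p under 0.05. Cd27 stood at 0.46, with a 95% interval from -0.15 to 1.06, and Tnf at 0.43, with an interval from -0.37 to 1.22 (limma adjusted p = 0.808 and 0.811). Lta stood at -0.36, with an interval from -0.87 to 0.15 (adjusted p = 0.808). These intervals hold 0 as well as differences of the size seen against LPS-G0, so they do not show that the preparations act alike.

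The members were then set beside the cell type marker lists over the 24 arrays, a description added after their values had been seen, in which 96 pairs of a member and a list were computed and 23 had an adjusted permutation p under 0.05 for r. Tnfsf13 followed the mean of the monocyte markers most closely, with Pearson's r of 0.82 (permutation p = 1e-05, the smallest that the resampling can give, adjusted 0.00096) and Spearman's rho of 0.73 (permutation p = 0.00015). It was 0.78 without the 2 arrays farthest from the median and 0.89, 0.75 and 0.60 on the 3 slides. Only 0.056% of the 10708 probes followed that list as closely as Tnfsf13 did. Tnfrsf1a with r of 0.75, Tnfsf12 with r of 0.74 and Tnfrsf1b with r of 0.63 also went with the monocyte markers, at or above 0.364%, 0.458% and 1.7% of probes. Without the 2 farthest arrays r was 0.76, 0.57 and 0.38 for these genes. The relation of Tnfrsf1b rested on 1 slide, with r of 0.92 there and of 0.15 and 0.20 on the others. Its rho of 0.53 had an adjusted permutation p of 0.059. The monocyte list was not the only one these genes went with. Tnfrsf1a had r of 0.62 with the neutrophil list, Tnfsf12 0.61 with the NK cell list and Tnfrsf1b -0.61 with the erythroid list. With the plasma cell list, measured by 1 gene, r was 0.68 for Tnfrsf1a and 0.64 for Tnfsf13.

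Cd27, a costimulatory receptor that T cells carry, followed the T cell markers with r of 0.74 (permutation p = 4e-05, adjusted 0.00128) and rho of 0.69 (permutation p = 0.00022). This was 0.66 without the 2 farthest arrays and 0.45, 0.83 and 0.91 on the 3 slides, and 0.775% of probes did so as closely. Cd27 also had r of -0.67 with the erythroid markers (adjusted permutation p = 0.00439), or -0.47 without the 2 farthest arrays. Its rho there was -0.51 (adjusted permutation p = 0.0661). Ltb had r of 0.65 with the B cell markers and of 0.60 with the T cell markers, which fell to 0.49 and stood at 0.61 without the 2 farthest arrays. Its rho was 0.54 with the B cell list (adjusted permutation p = 0.0559) and 0.62 with the T cell list (adjusted permutation p = 0.0218), so neither list stood out for it. Tnfrsf26 had r of 0.64 with the B cell markers, or 0.48 without those arrays, and its rho of 0.56 had an adjusted permutation p of 0.0548. Tnf was the loosest, with r of 0.42 to the neutrophil markers and an adjusted permutation p of 0.111. Tnfrsf14 had r of -0.62 with the platelet markers and 0.55 with the T cell markers, and Tnfrsf21 had 0.56 with the monocyte markers. Tnfrsf1b had r of 0.53 with the B cell markers and -0.56 with the platelet markers. Ltb had -0.54 with the platelet markers and Tnfrsf26 -0.58 with the erythroid markers. These pairs had an adjusted permutation p under 0.05 for r, but none had it for rho.

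Lta and Tnfrsf4, although genes of lymphocytes, had their strongest relation with the erythroid markers. For Lta, r was 0.68 (permutation p = 0.00011, adjusted 0.00211) and rho 0.67 (permutation p = 0.00053), with r of 0.53 without the 2 farthest arrays and of 0.83, 0.59 and 0.54 on the slides. For Tnfrsf4, r was 0.70 (permutation p = 0.00092, adjusted 0.00883) and rho 0.56 (permutation p = 0.00478), with r of 0.41 without those arrays and of 0.58, 0.81 and 0.29 on the slides. These relations were common on the arrays, since 14.9% of all probes followed the erythroid list as closely as Lta and 13.5% as closely as Tnfrsf4. All arrays share 1 reference, and the markers and the members were read from the same hybridisation. The permutations moved arrays across the 6 groups, so differences between group means enter the p-values of all these correlations. With the group means taken out, r with the erythroid list was 0.49 for Lta and 0.58 for Tnfrsf4. It was 0.74 for Cd27 with the T cell list and 0.85 for Tnfsf13 with the monocyte list.

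**Figure D4:**
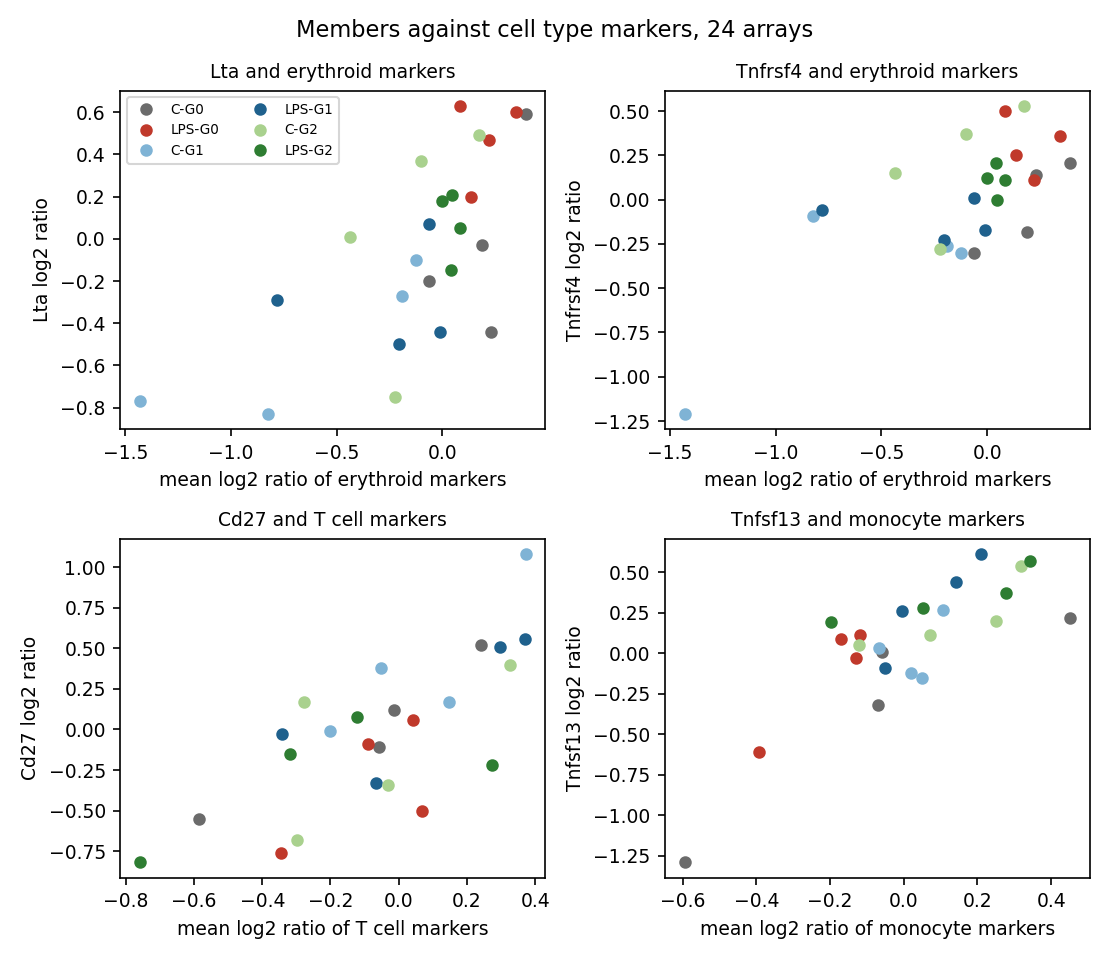
Log2 ratio of 4 members on the vertical axis against the mean log2 ratio of a marker list on the horizontal axis, with 1 point for each of the 24 arrays coloured by group. Points rise together in all 4 panels, with r of 0.68 for Lta, 0.70 for Tnfrsf4, 0.74 for Cd27 and 0.82 for Tnfsf13, and the lowest erythroid values belong to C-G1 and LPS-G1.

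Superfamily genes with names outside the rule, and the pathway behind the receptors, were read from lists. Among 10 superfamily genes listed, 9 were on the array and 4 measurable. Cd40, the B cell and monocyte receptor for T cell help, rose in LPS-G1 vs. LPS-G0, with -0.13, 0.48, 0.69 and 0.52 against -0.66, -0.48, -0.51 and -0.81. The groups did not overlap, and the log2 difference was 1.01 with an SE of 0.27 (limma adjusted p = 0.0328). For the comparison of LPS-G2 with LPS-G0 the Cd40 difference was 0.85 (adjusted p = 0.597).

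Ltbr, the receptor for the Lta and Ltb complex, stood at 0.27 in LPS-G1 vs. LPS-G0 and at 0.55 in LPS-G2 vs. LPS-G0 (limma adjusted p = 0.368 and 0.597). Faslg, the gene of the Fas ligand, stood at 0.64 in LPS-G0 vs. C-G0 (adjusted p = 0.296), at -0.22 in LPS-G1 vs. LPS-G0 (adjusted p = 0.611) and at -0.74 in LPS-G2 vs. LPS-G0 (adjusted p = 0.597). The mean of the markers of NK cells, which are known to express Faslg, was higher by 0.93 in the first of these and lower by 0.45 in the last (exact permutation p = 0.0571 for each), and its part was not tested. Relt stood at 0.18 in LPS-G0 vs. C-G0 and at -0.10 in LPS-G1 vs. LPS-G0.

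The list of TNF receptor signalling held 48 genes, of which 44 were on the array and 30 were measurable. None was called in LPS-G0 vs. C-G0, 1 was in LPS-G1 vs. LPS-G0 and none in LPS-G2 vs. LPS-G0, beside 0.0097%, 8.93% and 0% of all probes, and the medians were -0.01, 0.17 and 0.11 beside 0.03, 0.06 and -0.02 for all probes. Tank, which binds TRAF proteins and curbs NF-kappaB activation, fell in LPS-G1, with 0.02, -0.09, -0.41 and -0.28 against 0.68, 0.34, 0.20 and 0.79 in LPS-G0. Every LPS-G1 array was below every LPS-G0 array, and the log2 difference was -0.69 with an SE of 0.19 (limma adjusted p = 0.0357). The calls of Cd40 and Tank were lost without the same arrays as that of Lta. Their adjusted p reached 0.11 for Cd40 and 0.114 for Tank. In those fits at most 11 of all probes tested were called.

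The other signalling genes with the lowest p did not pass the test. In LPS-G1 vs. LPS-G0 these were Mlkl, the executor of necroptosis, at -0.58 (limma adjusted p = 0.0784) and the adaptor gene Traf6 at 0.67 (adjusted p = 0.0928). In LPS-G0 vs. C-G0 they were the kinase gene Map3k7 at -0.52 (adjusted p = 0.251), Tank at 0.50 (adjusted p = 0.253) and the caspase inhibitor gene Cflar at -0.63 (adjusted p = 0.255). In LPS-G2 vs. LPS-G0 they were Tank at -0.40, the deubiquitinase gene Cyld at 0.64 and the NF-kappaB inhibitor gene Nfkbie at 0.65, all with an adjusted p of 0.597.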

How the data were processed

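The authors deposited Agilent Feature Extraction output (version 10.10.1.1 per the file headers, 10.7.3.1 in the submitters' processing notes), with background-subtracted, Lowess-balanced intensities of both channels and a log10 ratio of Cy5 over Cy3. The deposited series table held the same log10 ratios (1511424 of 1511424 identical). Here their sign was turned and they were converted to log2, outlier spots were left out, spots of a probe were averaged, and limma 3.58.1 in R 4.3.3 (moderated by empirical Bayes, Benjamini-Hochberg adjustment) was fitted over 10313 probes and 16 arrays for the study's 3 comparisons, or over 10708 probes and 24 arrays otherwise. An alternative used analysis of variance and Tukey's test, as the study did. Probes were tested where 1 group or more had them flagged well above background in Cy3 on each of its 4 arrays. Arrays number 4 a group, and that limits precision. The code was tested on simulated data.

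Members and gene lists were chosen with earlier results of these data known. Named members were those called, the 3 with the lowest p in each study comparison and over LPS, and 9 chosen by role where measurable. From the other lists, the 3 genes with the lowest p in each study comparison were named. The replicate numbers of the titles were not taken to pair arrays of different groups.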

Additional observations from a re-analysis of the deposited data

Results flagged for a closer look

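Of 72 groups of 4 arrays, 4 held an array far from its 3 companions by Dixon's criterion, and chance flags about 1 in 20 groups. Ltb stood at -0.81 in C-G0 replicate 1, against 0.08 to 0.16 in the other arrays of its group. Tnf stood at -1.82 in C-G2 replicate 3, against 0.04 to 0.42, and that was the only array on which Tnf was not well above background in Cy3. Tnfrsf14 stood at 0.75 in C-G1 replicate 2, against -0.10 to 0.02. Tnfrsf26 stood at 0.38 in LPS-G1 replicate 2, against -0.20 to -0.11.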

How the results depend on the processing

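In LPS-G1 vs. LPS-G0, where 1 member was called, the count was 0 with slide as a block, with no filter on dim probes, with probes well above background on all arrays (which drops Lta itself), with Cy3 alone, with 24 arrays in the fit, without the 2 arrays of conflicting labels, with a change of at least 2-fold asked as well, and with the analysis of variance and Tukey's test. It was 2, Lta and Tnfrsf4, with normexp and loess and with array weights, and it ranged from 0 to 1 when each array was left out. Over all probes, 1161 of 10313 were called with normexp and loess and 2900 with array weights. With slide as a block 336 were called, with probes well above background on all arrays 831 of 7272, and with 24 arrays 3. With no filter, with Cy3 alone and without the 2 arrays of conflicting labels, 0 were called. No count over all probes is given here for the 2-fold rule or the analysis of variance, so their 0 cannot be set beside a share of all probes. Over the settings other than single arrays left out, the Lta difference ranged from -0.85 to -0.50 with adjusted p from 0.00094 to 0.306. In LPS-G0 vs. C-G0, where 0 were called, the count was 1, Lta, with array weights. It ranged from 0 to 1 when each array was left out, the 1 coming without C-G0 replicate 1. Over all probes, 1177 of 10313 were called with array weights and 1136 of 10338 without that array. The other 9 counts stayed at 0 under every alternative run, and in designs of 4 arrays a group this does not show that nothing differed. Over all probes, C-G1 vs. C-G0 had 600 of 10708 called with the replicate number as a block and 968 of 10709 without C-G0 replicate 4. For C-G2 vs. C-G0 these fits called 43 of 10708 and 355 of 10709. Other alternative fits of C-G1 vs. C-G0 and C-G2 vs. C-G0 called at most 10. Of 47 differences of named genes, 0 changed sign under settings that kept every array or dropped both arrays of conflicting labels, and 1 did when each array was left out, namely Cd27 in LPS-G2 vs. C-G2, which ranged from -0.35 to 0.02 and was above 0 without C-G2 replicate 4 or LPS-G2 replicate 3. Tank and Cflar in LPS-G0 vs. C-G0 and Mlkl in LPS-G1 vs. LPS-G0 passed with array weights, as did Traf6 in the latter, and the first pair passed without C-G0 replicate 1 (0.64 and -0.81) and Mlkl without LPS-G0 replicate 3 (-0.71). Arrays of the same replicate number correlated in their deviations from the group means from -0.26 to 0.54 over 8 comparisons. In none was every pair over 0.1, and in C-G2 vs. C-G0, LPS-G1 vs. C-G1 and LPS-G2 vs. C-G2 3 of 4 pairs were, with means of 0.33, 0.22 and 0.17 against -0.11, -0.07 and -0.05 for arrays of different numbers. With the replicate number as a block the count in LPS-G1 vs. LPS-G0 was 1, Lta (adjusted p = 0.0148), among 1269 probes called, and no count of members changed with that block. Cd40 ranged from 0.67 to 1.20 and Tank from -0.76 to -0.52 over the same settings, and each lost its call in 5 of 9. The causes of these shifts were not tested. Genes dim in Cy3 have bounds only, which is what signal over background limits here.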
